A study of Mus musculus with 6 samples.

Results

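The genes described are 9 named components of insulin and insulin-like growth factor (IGF) signalling, of 21900 annotated protein-coding genes: the ligand gene Igf1, the receptor genes Igf1r and Insr, the substrate genes Irs1 and Irs2, and the binding protein genes Igfbp2, Igfbp3, Igfbp4 and Igfbp5. They were taken by name and looked up in each of the 8 deposited gene lists. A wider list of 93 pathway genes, which includes these 9, was looked up beside them.

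Insulin and the IGFs act through paired tyrosine kinase receptors that recruit substrate proteins and switch on the PI3K/AKT and RAS/MAP kinase routes. Secreted IGF binding proteins (IGFBPs) hold the ligands outside the cell, and proteases release them. In the ovary, granulosa cells, which surround the oocyte and make steroid hormones, produce IGF1 and respond to it together with follicle stimulating hormone. H3K27me3, the trimethylated form of lysine 27 in histone H3, is placed on silent genes by Polycomb complexes.

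The material was primary granulosa cells of wild type C57BL/6J mice aged 8 to 9 weeks, profiled by H3K27me3 ChIP-seq. There were 3 control samples with no agent and 3 samples given 25 nM DHT (dihydrotestosterone, an androgen that is not turned into estrogen) for 24 h. Cells were pooled from 30 mice according to the labels (the study's methods text gives another number) and plated in 6 dishes, so samples of one group are dishes and not animals. The authors deposited 1 peak list per group and lists of gene symbols. A gene is therefore either on a list or not, and no gene has a value per sample. There was no replicate error to compare a difference with, and no test was possible.

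The depth of the samples is unknown from these files. The control list held 16345 peaks, or 6.20 per Mb, and the DHT list 3975 peaks, or 1.51 per Mb. Of 10 granulosa cell markers looked up, 8 were in neither gene body list, Cyp19a1 was in the control list alone and Fshr in both. Of 3 leukocyte markers Ptprc was in both lists, and of 3 endothelial markers Pecam1 was in both and Tek in the control list alone. None of 4 theca and stroma markers or of 3 oocyte markers was in either list. Of all protein-coding genes, the control list held 13.0% and the DHT list 4.76%. The marker counts were not read against gene length. A silencing mark cannot identify the cells, so the labelled cell type could not be checked here.

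H3K27me3 peaks were listed in the bodies of 3 of the 9 genes. Igf1, which encodes the secreted growth factor, was listed in control but not after DHT. Igf1r, which encodes its receptor, showed the same pattern. Insr, which encodes the insulin receptor, was listed after DHT but not in control. Igf1 and Igf1r thus shared a pattern and Insr had the opposite one, and no gene of the 9 was in both lists. Control alone was also the pattern of 2220 of the 3263 listed protein-coding genes, so sharing it is no result about this ligand and receptor. In bulk ChIP-seq, a mark in fewer cells and a weaker mark in every cell cannot be told apart. The other 6 genes, both substrates and the 4 binding proteins, were in neither list.

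These counts were close to the background. The control list held 2 of the 9 genes (22.2%), where it held 13.0% of all protein-coding genes. The DHT list held 1 of 9 (11.1%), where it held 4.76% of them. In the control list alone were 2 of 9, against 10.1% of all genes. In the DHT list alone was 1 of 9, against 1.88%. In both lists were 0 of 9, against 2.89%. With 9 genes, 1 gene more or less moves each share by 11.1 percentage points.

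None of the 9 genes was listed with a peak in its promoter, which the study took as 1 kb up or down from the transcription start. The control promoter list held 0 of 9 and 0 of the 93 pathway genes, and 0.612% of all protein-coding genes. The DHT promoter list likewise held 0 of 9 and 0 of 93, with a background of 0.187%. The peaks that put Igf1, Igf1r and Insr on a list thus lay outside their promoters, as the authors annotated them. The authors also deposited 4 lists of genes whose expression DHT changed, split by direction and by whether the mark was in the gene body or at a linked enhancer. These 4 lists held 0 of the 9 genes and 0 of the 93. They are short: of all protein-coding genes, 0.0959% were in the list of raised genes with a gene body peak and 0.0639% in that of lowered genes. The lists linked to enhancers held 0.269% (raised) and 0.142% (lowered), so 0 of 9 is no result about these genes.

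Promoter sequences are shown for 3 genes, none of them in a promoter list. Igf1 and Igf1r were both in the control gene body list, and Irs2 was in no list. Polycomb often occupies promoters rich in CG dinucleotides, so each CG is in capitals. The sequences are RefSeq's for GRCm38.p6, run 5′ to 3′ on the strand of the gene, end at the transcription start site and hold no annotated exon. At Igf1 a predicted Igf1 exon covers 150 of the 250 bases before this start site, so only the 95 bases that follow it are shown. The positions are chr10:87861016-87861110 on the plus strand for Igf1 (95 bases, 2 CG), chr7:67952007-67952256 on the plus strand for Igf1r (250 bases, 42 CG) and chr8:11008930-11009179 on the minus strand for Irs2 (250 bases, 34 CG).
Igf1: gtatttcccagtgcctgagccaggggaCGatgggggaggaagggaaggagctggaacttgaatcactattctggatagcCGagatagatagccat
Igf1r: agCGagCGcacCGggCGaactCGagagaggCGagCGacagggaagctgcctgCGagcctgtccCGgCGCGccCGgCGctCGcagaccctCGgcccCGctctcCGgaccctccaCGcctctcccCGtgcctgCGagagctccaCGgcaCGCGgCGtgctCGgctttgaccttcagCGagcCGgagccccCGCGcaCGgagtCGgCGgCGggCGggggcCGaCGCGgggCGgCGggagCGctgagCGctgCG
Irs2: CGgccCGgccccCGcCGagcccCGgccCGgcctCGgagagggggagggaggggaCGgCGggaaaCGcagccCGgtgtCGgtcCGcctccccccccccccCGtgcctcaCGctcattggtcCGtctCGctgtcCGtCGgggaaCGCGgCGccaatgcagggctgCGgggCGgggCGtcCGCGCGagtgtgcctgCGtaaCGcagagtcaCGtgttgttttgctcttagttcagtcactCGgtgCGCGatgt

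The promoters of the 2 genes listed in control lay far apart in CG content. In the full RefSeq window of 300 bases (250 before and 50 after the start site), Igf1r held 48 CG, as many as or more than 98.7% of 21263 promoter windows of protein-coding genes. Igf1 held 6, and 35.7% of windows had as many or fewer. The median window held 13. The unlisted genes spanned much of this range, from 10 CG at Igfbp5 to 41 at Irs2, with 28 at Irs1, 27 at Igfbp4 and 37 at Igfbp3. Igfbp2 has 2 windows, with 18 and 14, and Insr has none. A predicted exon of the same gene covers 150 of the 250 bases before the start site at Igf1, and all 250 at Igfbp3 and Igfbp4. Those windows are thus partly or mostly transcribed sequence in that prediction.

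**Figure D1:**
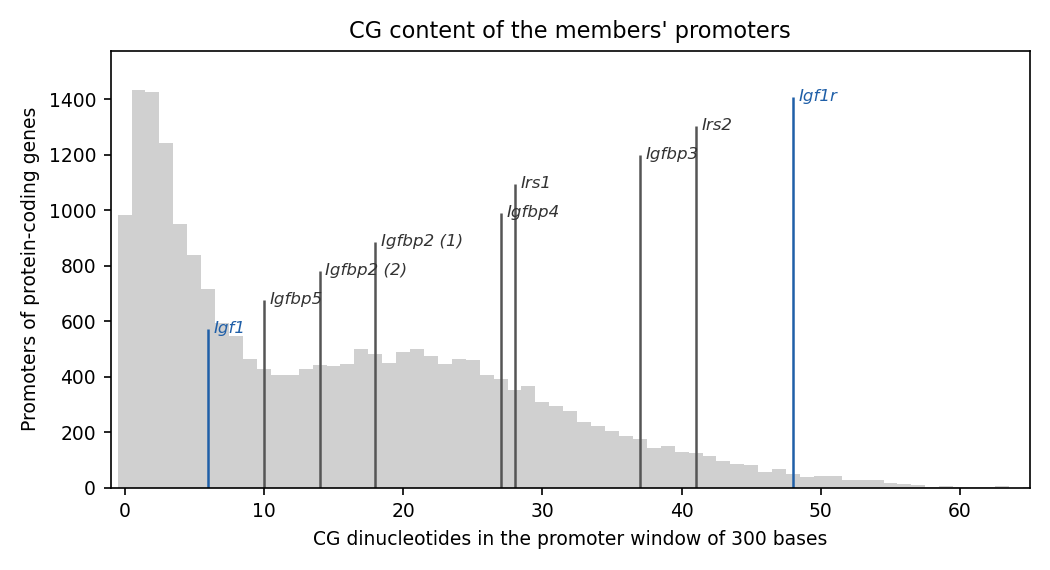
The grey bars give the number of promoter windows of protein-coding genes (vertical axis) by their count of CG dinucleotides in 300 bases (horizontal axis). Lines mark 8 of the 9 genes, with 2 windows for Igfbp2 and none for Insr. Blue marks the genes in the control gene body list alone, Igf1 with 6 CG and Igf1r with 48, at opposite ends of the genes shown.

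Windows were also searched on both strands for AGAACA, the hexamer to which the androgen receptor binds. It was in 16.2% of all windows and, among the 9 genes, only in 1 window of Igfbp2 (8 genes had a window, all but Insr). The paired element, AGAACA and TGTTCT separated by 3 bases, was in 2 of all 21263 windows and in 0 of those of the 9 genes. The core ACGTG of the hypoxia response element was in 20.9% of windows and in those of Irs1 and Irs2 and 1 of the 2 windows of Igfbp2, with 2 matches in each. Each of these came from a single CACGTG, which reads the same on both strands. Letters that match are not evidence of binding.

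Listing in a gene body rose steeply with the length of the gene, and the 3 listed genes were the 3 longest. Igf1r spans 281.4 kb, Insr 128.7 kb and Igf1 78.8 kb in GRCm38. The unlisted genes span 58.3 kb (Irs1), 28.0 kb (Igfbp2), 24.2 kb (Irs2), 16.8 kb (Igfbp5), 12.7 kb (Igfbp4) and 9.4 kb (Igfbp3). Of all protein-coding genes under 5 kb 0.535% were in the control list, and of those of 320 kb or more 90.4% were. For the DHT list these shares were 0.0198% and 53.7%.

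**Figure D2:**
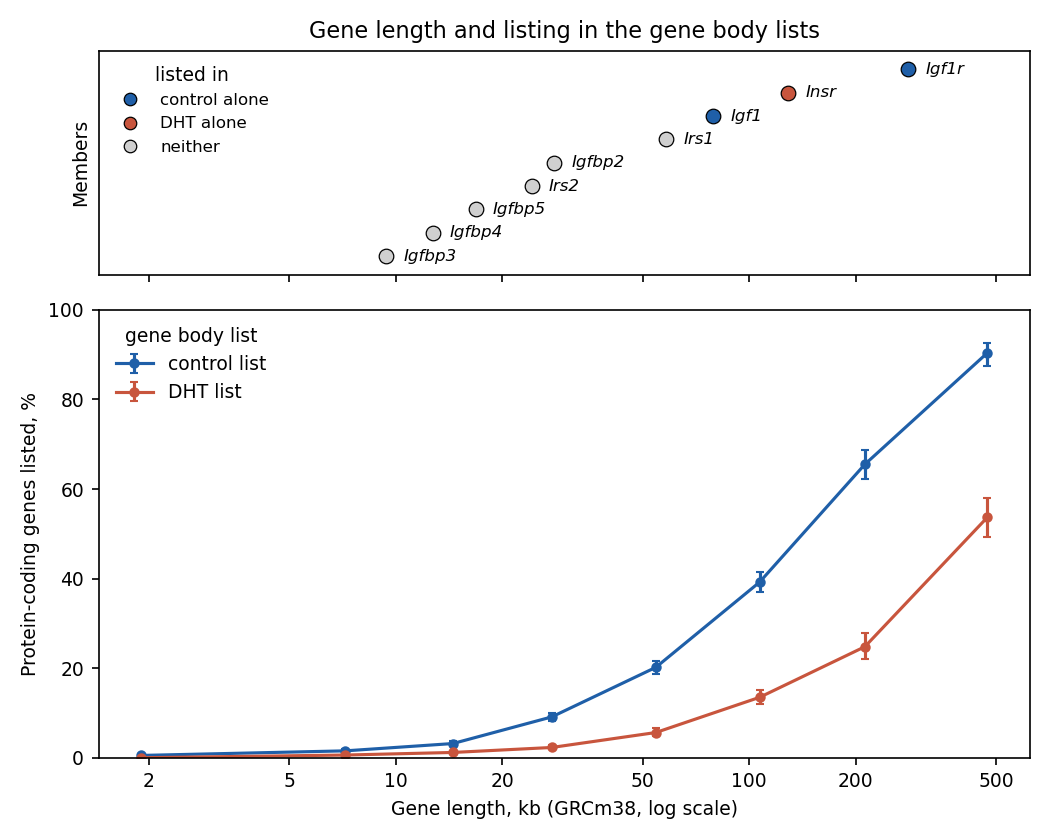
Upper panel: each point is 1 of the 9 genes at its length in GRCm38 (horizontal axis, kb, log scale), coloured by the gene body list that holds it. Lower panel: percent of protein-coding genes in each gene body list by class of length, at the median length of the class, with 95% Wilson intervals; the share rises to 90.4% in control and 53.7% after DHT, and the 3 listed genes are the longest of the 9.

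Each gene was therefore read against protein-coding genes whose length was within a factor of 1.5 of its own. For Igf1r there were 772 such genes, of which 71.8% (95% interval 68.5 to 74.8%) were in the control list, while the DHT list held 30.6%. Its pattern, control alone, was the most frequent one and held for 47.5% of them. Of those in the control list 33.8% were also in the DHT list, so a gene of this length that leaves the list after DHT was the more common case.

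For Igf1 there were 2764 genes of like length. The control list held 27.7% of them (95% interval 26.0 to 29.4%) and the DHT list 8.83%. Control alone was the pattern of 24.2% and neither list that of 67.0%. Of those in the control list 12.5% were also in the DHT list.

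For Insr there were 1880 genes of like length, of which the control list held 43.7% (95% interval 41.5 to 46.0%) and the DHT list 15% (95% interval 13.5 to 16.7%). Its pattern, DHT alone, was the least frequent and held for 6.86%. Among the genes of this length in the DHT list, 45.7% were not in the control list. Among Igf1, Igf1r and Insr, Insr is thus the one whose pattern the fewest genes of its length shared. This was not particular to Insr, as some genes of the wider pathway list had patterns rarer for their length. These were Sos1 in both lists (4.03%), Pik3cb in both (5.57%) and Grb14 in the DHT list alone (6.35%).

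For the substrate gene Irs1, which encodes a docking protein for both receptors, 20.6% of 3298 genes of like length were in the control list and 75.8% were in neither. For Irs2, which encodes a second such protein, the control share was 7.36% and neither list held 91.1%. For the binding protein genes the control share ran from 2.13% (Igfbp3) through 3% (Igfbp4) and 4.59% (Igfbp5) to 8.99% (Igfbp2), and the DHT share from 0.779% to 2.34%. Summed over the 9 genes these shares come to 1.90 genes for the control list, where 2 were listed, and to 0.677 for the DHT list, where 1 was. For control alone the sum is 1.5, with 2 listed, and for DHT alone 0.278, with 1 listed. Absence of the 6 shorter genes from the lists is thus what most genes of their length showed, and it does not show that they carried no mark, as the depth is unknown.

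The number of peaks on the chromosomes of the listed genes gave a further scale. Chromosome 7, with Igf1r, held 600 control and 155 DHT peaks, or 3.94 and 1.02 per Mb, and a stretch as long as Igf1r would hold 1.11 and 0.286 peaks at that density. Chromosome 10, with Igf1, held 940 and 257 peaks, and a stretch as long as Igf1 would hold 0.570 and 0.156. Chromosome 8, with Insr, held 832 control and 238 DHT peaks, which gives 0.815 and 0.233 for the length of Insr. Peaks on chromosome 8 were thus 3.50 times denser in control than after DHT, and Insr was listed only after DHT. This excess depended on the limit for peaks, and was 1.77 times with peaks up to a q-value of 0.01 and 1.26 times up to 0.001. For Igf1r the ratio went from 3.87 to 2.61 and 1.47, and for Igf1 from 3.66 to 2.42 and 1.41. Summed over the 9 genes, 3.47 peaks would be held in control and 0.918 after DHT. The peaks inside each gene, with their fold enrichment and q-values, are not given, since the peaks are in mm9 and no mm9 gene position was used here.

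Other genes of the pathway were read in the same way. Of the 93 genes, the control list held 20 (21.5%) and the DHT list 8 (8.60%). In the control list alone were 14, in both 6, in the DHT list alone 2 and in neither 71. The shares of like-length genes summed to 21.9 for control and 7.82 for DHT, so the counts were near those of other genes of their length. Of the 24 pathway genes of 100 kb or more, 15 were listed (62.5%), and of the 69 shorter ones 7 (10.1%). Among all protein-coding genes these shares were 67.6% and 8.33%.

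**Figure D3:**
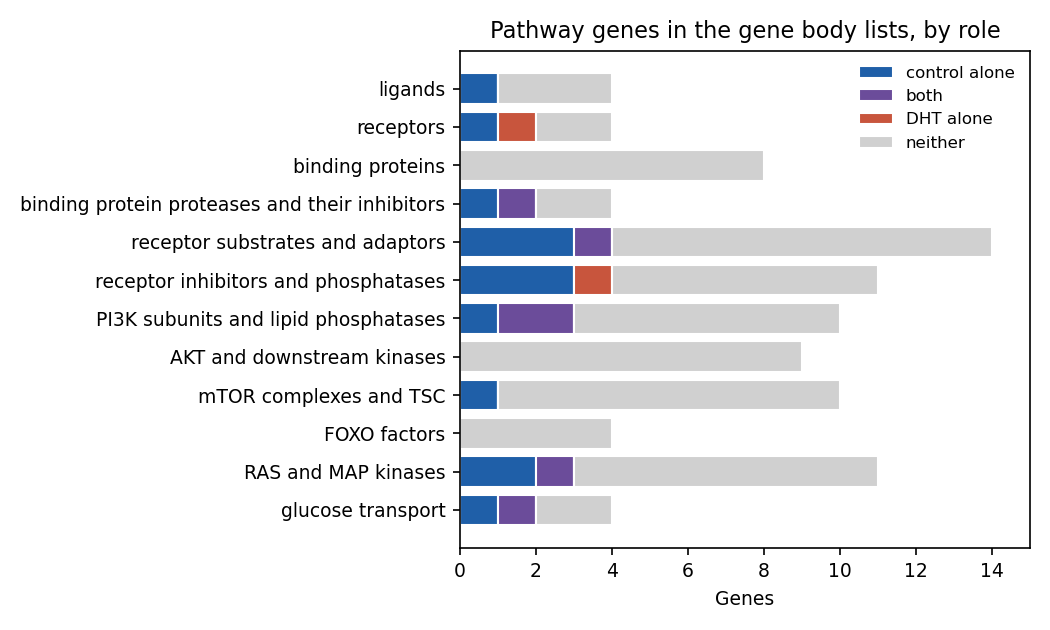
Number of pathway genes (horizontal axis) by role (vertical axis), split by colour into those in the control gene body list alone, both lists, the DHT list alone and neither. The 93 genes fall into 12 roles; binding proteins, AKT and downstream kinases and FOXO factors have 0 listed genes, and the DHT list alone holds 1 receptor and 1 receptor inhibitor.

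Outside the cell, Igf1 was the only one of 4 ligand genes listed, and Ins1, Ins2 and Igf2 were not. Of 4 receptor genes Igf1r and Insr were listed. Igf2r, which encodes the receptor that takes up IGF2, and Insrr, an orphan relative of Insr, were not. None of 8 binding protein genes was listed, a group with a median length of 11.0 kb. The proteases that cleave binding proteins were listed: Pappa (233.3 kb), which encodes PAPP-A, was in both lists, and Pappa2 (248.7 kb) was in the control list alone. Stc1 (12.1 kb) and Stc2 (10.6 kb), whose products block these proteases, were in neither. The control list held 66.2% of genes of like length for Pappa and 68.4% for Pappa2. For Stc1 and Stc2 these shares were 2.84% and 2.37%, so the split between proteases and blockers is no result about these roles.

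At the receptor, 4 of 14 substrate and adaptor genes were listed. Gab1, Gab2 and Shc4, which encode adaptors, were in the control list alone and Shc3 was in both. Neither Irs3 nor Irs4 was listed. Of 11 genes for inhibitors and phosphatases, Grb10, Cbl and Cblb were in the control list alone. Grb10 encodes an adaptor that dampens both receptors, and the Cbl proteins are ubiquitin ligases. Grb14, which encodes a close relative of GRB10 that inhibits the insulin receptor, was in the DHT list alone. Thus the 2 pathway genes in the DHT list alone were Insr and Grb14. The related genes Igf1r and Grb10 were in the control list alone, as were 47.5% and 31.3% of genes of like length. Insrr, a further relative of Insr, was in neither list. This pairing was made after the values had been seen and was not tested. Grb14 spans 110.3 kb, and 6.35% of genes of like length were in the DHT list alone. Over the 93 genes the like-length shares for this pattern summed to 3.20, so 2 such genes was no more than other genes of their length gave.

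Inside the cell, Pik3cb, which encodes a catalytic subunit of PI3K, was in both lists, and Pik3r1, for its regulatory subunit, was in the control list alone. Inpp4b (792.0 kb), which encodes a lipid phosphatase that opposes PI3K, was in both. None of 9 genes for AKT and downstream kinases was listed. None of 4 FOXO genes was listed. Among 10 genes for the mTOR complexes and TSC only Mapkap1 was listed, in control alone. Rptor, at 296.7 kb, was in neither list, as were 19.8% of genes of like length, while 73.2% of these were in the control list. On the RAS route Sos1, for an exchange factor, was in both lists, and Sos2, for its relative, was in the control list alone. Of the genes for glucose transport, Tbc1d4 was in both lists and Tbc1d1 in the control list alone, and these encode proteins that hold back the transporter. Slc2a4, for the transporter itself, was in neither.

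The genes on either side were read to see whether the mark was listed around the 9 genes or in single genes. The 3 nearest protein-coding genes on each side were taken, except that Insr has none annotated on its lower side. Of 47 distinct flanking genes, among them Igfbp2 and Igfbp5 themselves, 6 were in the control list alone, 2 in both and 1 in the DHT list alone, where the shares of all protein-coding genes were 10.1%, 2.89% and 1.88%. The control list thus held 8 of the 47, and the shares of genes of like length summed to 11.3. The DHT list held 3, with a sum of 4.09. Next to Igf1 only 1700113H08Rik was listed and next to Igf1r only Fam169b, both in control alone. None of the 3 genes next to Insr was listed. The gene next to Igf1, Igf1r or Insr on each side was unlisted in every case.

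**Figure D4:**
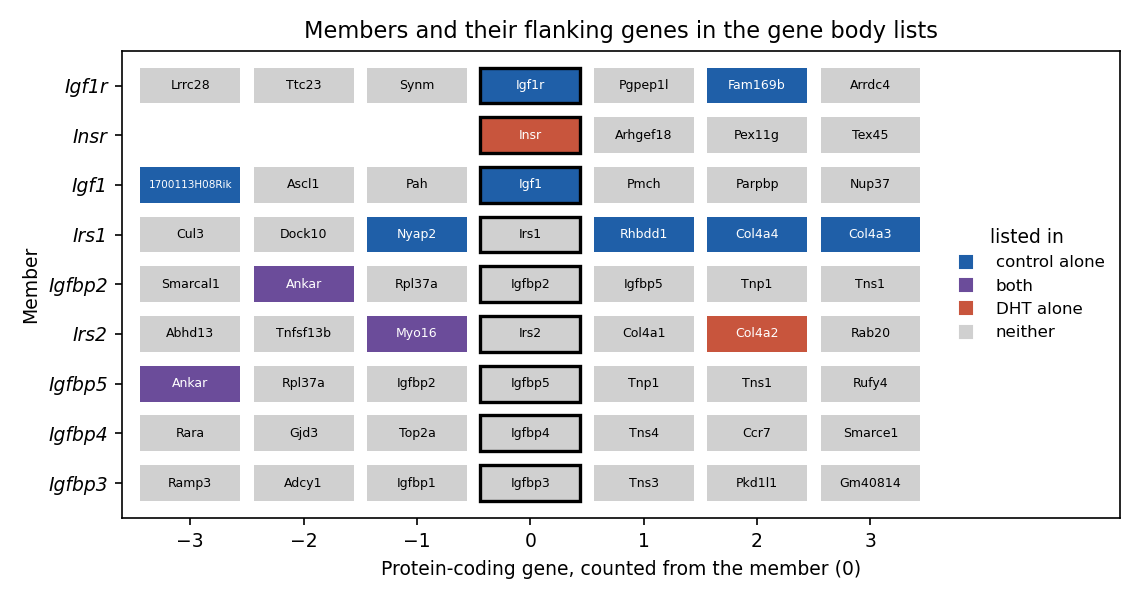
Each row is 1 of the 9 genes (black frame, position 0) with up to 3 protein-coding genes on either side in order along the chromosome (horizontal axis), coloured by the gene body list that holds them. Of 47 distinct flanking genes 38 are grey, in neither list, and Irs1 has the most listed neighbours, 4 of 6.

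Irs1 was unlisted, and of its 6 flanking genes Nyap2 (291.2 kb), Rhbdd1 (128.9 kb), Col4a4 (138.6 kb) and Col4a3 (135.1 kb) were in the control list alone. These are long genes, and for the 6 the like-length shares summed to 3.05. Irs2 had 2 listed flanking genes of 6, Myo16 (480.8 kb) in both lists and Col4a2 in the DHT list alone. For these 6 the like-length shares summed to 1.94 for control, where 1 was listed, and to 0.838 for DHT, where 2 were. Irs2 also overlaps 9530052E02Rik, a noncoding RNA gene on the opposite strand, by 1.08 kb, or 4.45% of Irs2. This RNA gene was in the control list alone. Igfbp2 and Igfbp5, neighbours on chromosome 1, shared 1 listed flanking gene, Ankar, in both lists. Around Igfbp3 and Igfbp4 0 of 6 genes each were listed. The flanking genes of Irs1 and of the other unlisted genes were named after their values had been seen.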

How the data were processed

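H3K27me3 ChIP-seq was available for 6 samples, grouped by the labelled agent. The authors aligned reads to mm9 (Bowtie2, version 2.3.4), discarded those without a unique position, and called broad peaks (MACS2, version 2.1.1) at a q-value of 0.05 or less. Whether an input library was used and how replicates were combined were not stated. The methods say that PCR duplicates were removed, whereas the peak names carry a setting that lets the caller decide. Each deposited peak list gives a score, a fold enrichment over the local background, and the −log10 of the q-value. The −log10 p-values were not used. In 8 of 21 chromosomes peaks reach past the end of the GRCm38 sequence, so the lists are not in that build.

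Gene symbols were matched to RefSeq GRCm38.p6, older symbols included. Of 3144 control and 1146 DHT gene body entries, 3139 and 1143 matched. The gene annotation behind the authors' lists was not stated. A gene missing from it could not be listed, which would lower the background shares given here. GRCm38 gave names, lengths, gene order and promoter sequences only, and no peak was placed on it. Chromosome length was taken as the largest peak end. Shares carry 95% Wilson intervals, which cover counting error only, and genes are not independent. Analyses used Python 3.11.15, numpy 2.4.6, scipy 1.17.1, pandas 2.3.3 and matplotlib 3.10.9 and were tested on simulated data. Named by rule were the 9 genes, each listed pathway gene, unlisted genes sharing a role with these, and listed flanking genes of the listed genes among the 9. The genes and lists were chosen with earlier results of these data known. The planned protein comparison was not run, and a few pathway genes are counted but not reported here by name.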

Additional observations from a re-analysis of the deposited data

How the results depend on the processing

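No paired analysis was possible because each group has 1 pooled list. Leaving out each replicate was likewise not run, nor, without gene positions in mm9, was the planned placing of peaks inside genes. Matching symbols exactly or without regard to case left every count of the 9 genes as it was. Exact matching also left the counts of 20 and 8 pathway genes unchanged, and without the 9 genes they were 18 and 7.

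Over all annotated symbols in place of protein-coding genes, the control list held 6.27% and the DHT list 2.28%. Narrower or wider limits on length, or all symbols, moved the summed like-length share between 1.69 and 1.92 for control and between 0.611 and 0.710 for DHT. The peaks expected in stretches as long as the 9 genes were 3.47 in control and 0.918 after DHT. With peaks kept up to a q-value of 0.01 the sums were 1.37 and 0.616, and up to 0.001 they were 0.327 and 0.232, since fewer peaks pass. Of 88 alternatives over 34 values, 65 stayed within the set range, which was a ratio of 1.5 for counts and sums and the 95% interval for the share of a single gene. The unknown depth of each sample limits any reading of absence from a list.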

Other observations

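Type IV collagen genes, which encode chains of the basement membrane, are among the 3 nearest genes on the higher-coordinate side of both Irs1 and Irs2. Near Irs1, Col4a4 (138.6 kb) and Col4a3 (135.1 kb) were both in the control gene body list alone. Near Irs2, Col4a2 (136.5 kb) was in the DHT list alone and Col4a1 (114.5 kb) was in neither list. These genes were singled out after their values had been seen, and the difference between them was not tested.

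Of the pathway genes of 100 kb or more, 9 were in neither gene body list, among them Rptor, Gsk3b, Deptor, Braf, Sgk1, Mtor and Inpp5d. These include genes named after their values had been seen.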
